A study of Mus musculus with 13 samples.

Results

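Hsd17b13 and Cidea were the 2 lipid droplet genes among the 100 genes of a panel read in situ in regenerating mouse liver, and both were found by their symbols in the count tables and position lists. The mice were male C57BL/6 animals, labelled as 2 months old and wild type as far as the labels go, with no transgene or drug named. Every section, those at 0 h included, belonged to a partial hepatectomy series, in which 2/3 of the liver is removed and the remaining lobes grow back. The 13 sections fell into 7 times after surgery. Livers at 0 h, 24 h, 48 h and 72 h gave 2 sections per time, 14 d gave 3, and the late times of 3 mo and 6 mo gave 1 each. Whether any sections share an animal is not labelled, and the spread on which the p-values rest may be technical. The tests of level used 12 libraries, because both 24 h sections came from a single slide position without section numbers and their counts were added up. If the labelled age is the age at surgery, the late livers were also older, and time and age cannot be told apart there.

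A lipid droplet is a core of triglyceride and sterol esters inside a single layer of phospholipid, and proteins on its surface decide how fat is stored and released. HSD17B13 is a droplet-bound enzyme of the 17-beta-hydroxysteroid dehydrogenase family, made mainly by hepatocytes, which can oxidise retinol in vitro. In humans, loss-of-function variants of its gene are associated with a lower risk of chronic liver disease. CIDEA belongs to the CIDE family, sits where droplets touch and promotes their fusion into larger ones. It is known from brown fat, is low in healthy liver and is raised in fatty liver. Hepatocytes store fat in droplets for a short time after hepatectomy, and hepatocytes differ in metabolism between the portal vein, where blood enters the lobule, and the central vein, where it leaves.

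The assay, Molecular Cartography, detects single RNA molecules in a tissue section by repeated rounds of fluorescent labelling. A count here is 1 detected transcript placed inside a cell outline. The tables held 131221 cells and 55744933 counts, with 1678015 to 9619206 counts per section, and 60.2% to 79.8% of the transcripts in the position lists of 12 sections lay in cells. The members differed greatly in depth. Hsd17b13 had 405787 counts, which ranked 25 of 100 genes, and Cidea had 795, with 13 genes below it. Intervals below cover counting error only.

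Hsd17b13 was low at 0 h and 24 h, high at 48 h, 72 h, 14 d and 3 mo, and back near its starting level at 6 mo, when it is read as a share of all counts. In 0 h livers it made up 0.506% and 0.298% of the counts in cells. At 24 h its share was 0.339% and 0.205%, at 48 h 0.779% and 1.09%, and at 72 h 0.940% and 0.800%. The 14 d sections held 0.769%, 0.948% and 0.713%, the 3 mo section 0.925% and the 6 mo section 0.441%. Every section from 48 h to 3 mo lay above both 0 h and both 24 h sections, and the 6 mo section lay between the 0 h sections.

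The number of Hsd17b13 transcripts per cell followed the same course. Means per cell were 1.73 and 1.01 in 0 h sections, 1.19 and 0.750 at 24 h, 2.60 and 3.97 at 48 h, and 4.82 and 3.57 at 72 h. At 14 d the means were 4.76, 5.83 and 3.31, the 3 mo mean 3.17 and the 6 mo mean 1.19. More cells carried the transcript as well. When each cell was thinned to 200 transcripts to even out depth, 44.5% and 36.7% of 0 h cells had at least 1, 39.7% and 28.1% at 24 h, 62.9% and 65.0% at 48 h, and 55.5% and 58.3% at 72 h. These shares were 55.6%, 62.5% and 56.8% at 14 d. The 3 mo section had 58.8% and the 6 mo section 42.1%. The thinning left out cells below 200 transcripts, from 5.47% of cells in a 14 d section to 42.3% at 6 mo. Without thinning the shares ran from 34.7% of cells in a 24 h section to 75.1% in a 14 d section.

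Within a section the transcript was spread unevenly over cells. The tenth of cells richest in Hsd17b13 held 37.1% to 53.8% of its counts, with the highest values in a 24 h section and in the 6 mo section (53.2%). The most loaded single cell held 118 transcripts, in 14 d section 1, against 18 and 15 for the most loaded cells of the 0 h sections. Maxima and medians per cell were not scaled for depth, and cells of 14 d section 1 had a median of 632 counts of all genes, against 314 and 317 at 0 h. The median cell held 2 or 3 transcripts in each section from 48 h to 3 mo and 0 in the sections at 0 h, 24 h and 6 mo.

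**Figure D1:**
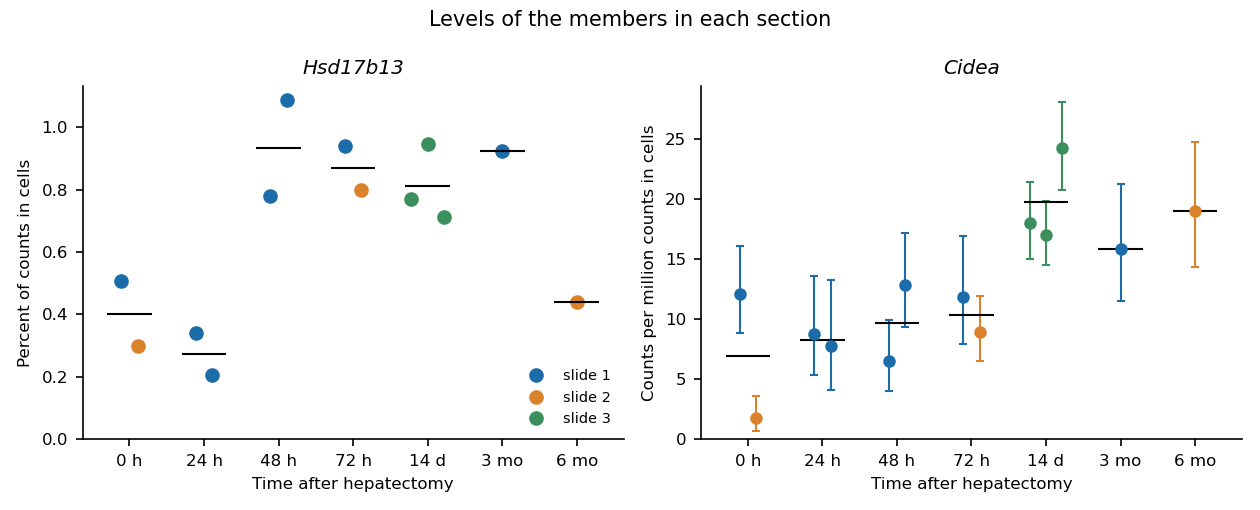
Levels of Hsd17b13 (left, percent of counts in cells) and Cidea (right, unscaled CPM of the counts in cells, with exact 95% Poisson intervals) in each of the 13 sections by time after hepatectomy. Points are sections, coloured by slide, and black lines are means; Hsd17b13 sections from 48 h to 3 mo lie between 0.713% and 1.09%, above all sections at 0 h and 24 h, and the Cidea sections of 14 d, 3 mo and 6 mo (15.8 to 24.2 CPM) lie above all earlier ones.

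A share of a 100-gene panel depends on what the other genes do, so levels were tested with edgeR's quasi-likelihood test on libraries scaled by TMM, which sets the bulk of the panel as the baseline. On that scale Hsd17b13 had 6293 and 4795 CPM at 0 h, 2928 CPM in the 24 h library, 7331 and 8847 CPM at 48 h, and 10006 and 8068 CPM at 72 h. The 14 d libraries had 5787, 8535 and 5971 CPM, the 3 mo library 8336 CPM and the 6 mo library 5057 CPM. The 14 d libraries overlapped those of 0 h here. In order of the mean, times ran 24 h, 6 mo, 0 h, 14 d, 48 h, 3 mo and 72 h, and each time from 0 h up this order overlapped the one ranked just below it.

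Hsd17b13 was 1.47 ± 0.36 log2 units higher at 48 h than at 24 h (SE, adjusted p = 0.0248, edgeR with Benjamini-Hochberg adjustment over 99 genes). This comparison called 5 of 99 genes, 5.05% of the genes tested. The other genes called were Csad and Gstm1, both higher at 48 h, and Cps1 and Fzd2, both lower. Within slide 1, which held all sections of these times, the difference was 1.51 ± 0.40 (adjusted p = 0.00665, edgeR). The call was lost when either 48 h section was left out (adjusted p = 0.0584 and 0.106), when 24 h section 2 was left out (0.0792) and when 14 d section 1 was left out (0.0582). Over all times Hsd17b13 varied (F = 4.56, adjusted p = 0.0103, edgeR), as did 65.7% of the genes tested. Without 24 h section 1 its F was 9.65.

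Against 0 h, Hsd17b13 passed the test at none of the 6 later times on the TMM scale. The log2 difference was -0.92 ± 0.35 at 24 h (adjusted p = 0.0609), 0.55 ± 0.28 at 48 h (0.181) and 0.70 ± 0.28 at 72 h (0.0822), from edgeR. For the later livers it was 0.29 ± 0.25 (14 d, adjusted p = 0.411), 0.59 ± 0.33 (3 mo, 0.441) and -0.13 ± 0.34 (6 mo, 0.818), also from edgeR. In time order these comparisons called 22.2%, 23.2%, 15.2%, 28.3%, 0% and 23.2% of the genes tested. The 3 mo comparison, which called none in edgeR, had 12 genes at an unadjusted p under 0.05 and 2 called by DESeq2. At 24 h Hsd17b13 passed with slide as a block (-1.08 ± 0.35, adjusted p = 0.0118) and with DESeq2 (-0.95, adjusted p = 0.0155). It also passed at 24 h in edgeR when 0 h section 2 (adjusted p = 0.0185), 24 h section 1 (0.00233), 48 h section 1 (0.0197), 48 h section 2 (0.0279) or 72 h section 1 (0.0190) was left out. At 72 h it passed with slide as a block (0.71 ± 0.26, adjusted p = 0.0303). Without 0 h section 1 it passed at 72 h (0.81, adjusted p = 0.0313, edgeR) and at 3 mo (0.91, 0.0352). Counts were also simulated with the depth of the 12 libraries and the spread of the fit to all times, and some genes were changed at 48 h. There the test of 48 h against 0 h recovered 25.0% of genes changed by 1 log2 unit and 91.4% of genes changed by 2.

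The answer turned on the scaling. Scaled by total counts, Hsd17b13 was higher at 48 h (1.22 ± 0.30, adjusted p = 0.0128), 72 h (1.11 ± 0.30, 0.0309) and 14 d (1.01 ± 0.28, 0.0153) than at 0 h, by edgeR. Scaled by the number of cells it was higher by 1.26 ± 0.40 at 48 h (adjusted p = 0.0285), 1.62 ± 0.40 at 72 h (0.00714) and 1.76 ± 0.38 at 14 d (0.00131). Both scalings also moved the median of all genes tested. At 48 h that median was 0.21 with TMM, 0.92 with total counts and 0.97 with cell number. A scaling moves all genes of a library alike, so a change set against that median had to come out close to the same under each, and their agreement is no check. For Hsd17b13 that change was 0.34, 0.30 and 0.29 at 48 h, 0.58, 0.57 and 0.57 at 72 h, and 0.21, 0.18 and 0.19 at 14 d. At 24 h Hsd17b13 stood 0.83 below the median under all 3 scalings, and at 48 h against 24 h it stood 1.45, 1.46 and 1.47 above the median. Under total counts and cell number the 48 h against 24 h difference no longer passed (adjusted p = 0.0517 and 0.144).

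**Figure D2:**
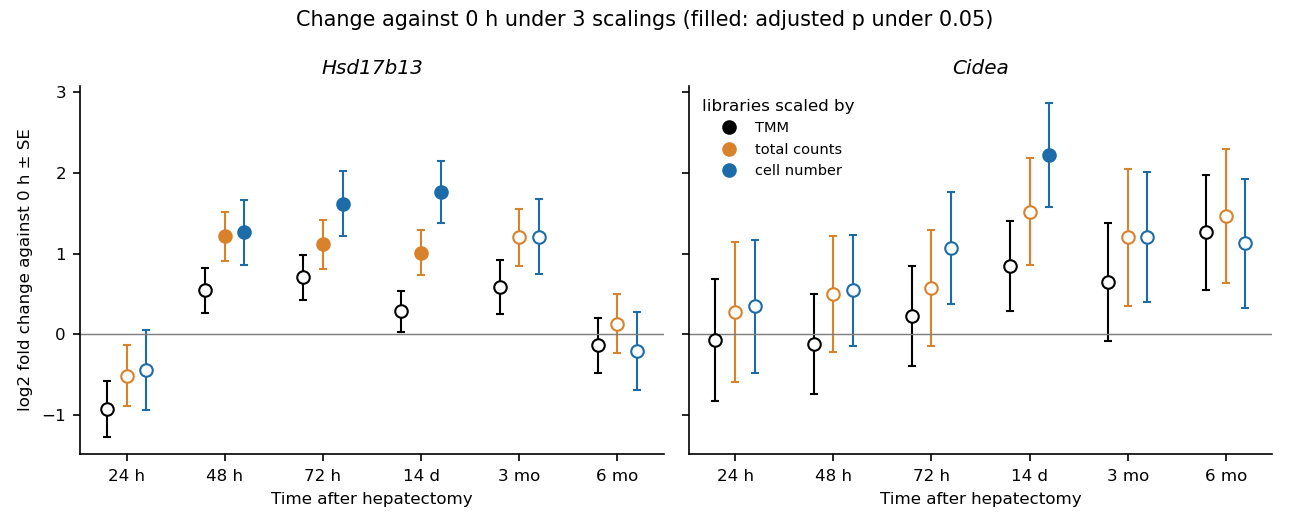
Log2 fold change against 0 h (± SE, edgeR) of Hsd17b13 and Cidea at each later time, with libraries scaled by TMM, by total counts or by cell number. Filled points have an adjusted p under 0.05: Hsd17b13 at 48 h, 72 h and 14 d under total counts and cell number, Cidea at 14 d under cell number, and none under TMM.

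Hsd17b13 lay on the portal side of the lobule at each time. Sections were divided into square tiles of 400 coordinate units, and each tile was placed between the portal and the central vein by the genes of either side. These were portal Gls2, Pck1, Arg1, Ass1 and Cps1, and 9 central genes with Glul and Cyp2e1 among them. A gene never placed the tiles for itself, so Hsd17b13 took no part in its own placing. For all other genes, Cidea included, Hsd17b13 was also among the portal genes that placed the tiles. Across tiles its share ran opposite to the central-minus-portal score, with Spearman correlations of -0.93 and -0.90 at 0 h, -0.89 and -0.90 at 24 h, -0.83 and -0.87 at 48 h, and -0.91 and -0.90 at 72 h. Correlations were -0.90 and -0.88 in the 14 d sections, and the 3 mo section had -0.92 and the 6 mo section -0.86. Tiles of 1 section share its tissue and depth, so these are descriptions. Among the 62 genes that reached 500 transcripts in each section, Hsd17b13 ranked from 2 to 7 for a portal position by this measure.

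**Figure D3:**
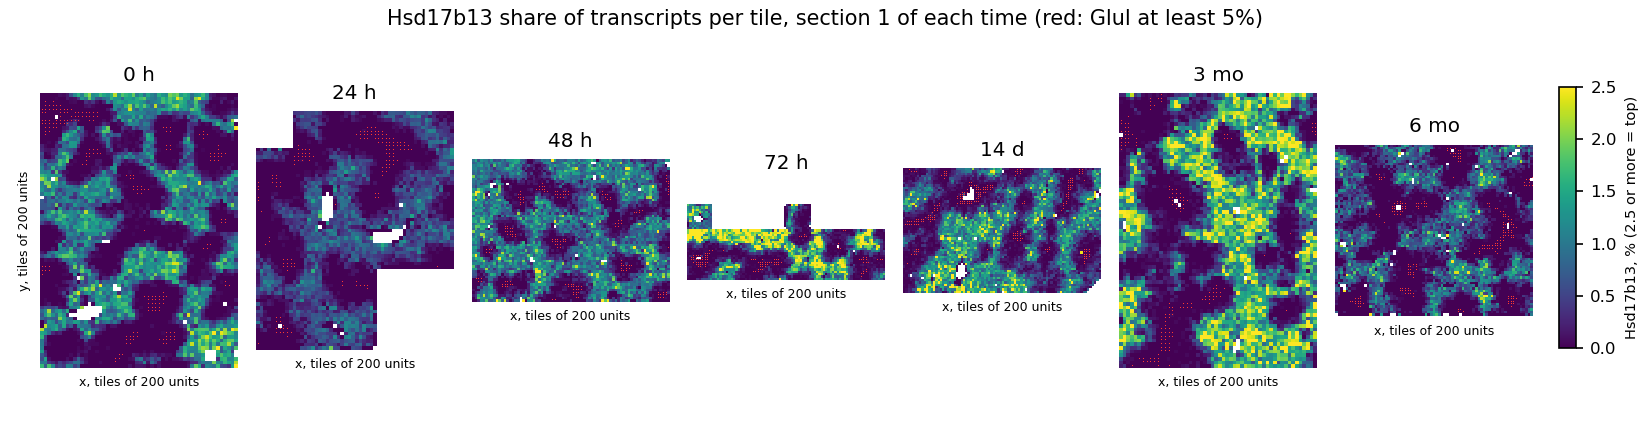
Hsd17b13 as a percent of transcripts in tiles of 200 coordinate units, in section 1 of each time, with tiles that held at least 5% Glul, the glutamine synthetase of the cells next to the central vein, marked in red. White areas held too few transcripts or lay outside the imaged field, and panels are drawn to different scales; Hsd17b13 forms bands between dark islands, and the red tiles lie in the islands.

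The gradient was steepest at 0 h, 24 h and 6 mo. The tiles of a section were ranked by the score and split into 5 layers of equal tile number. In the most portal layer Hsd17b13 made up 1.27% and 0.747% of transcripts at 0 h, 0.667% and 0.498% at 24 h, 1.09% and 1.82% at 48 h, and 2.08% and 1.58% at 72 h. In the 14 d sections that layer held 1.36% and 1.56%, in the 3 mo section 1.85% and in the 6 mo section 0.919%. In the most central layer the shares were far smaller and differed far more between times. They were 0.00234% and 0.00696% at 0 h, 0.00183% and 0.000603% at 24 h, 0.0542% and 0.0730% at 48 h, and 0.0303% and 0.0448% at 72 h. The 14 d sections had 0.0448% and 0.0799%, the 3 mo section 0.0234% and the 6 mo section 0.00400%. In this layer every section from 48 h to 3 mo lay above all sections of 0 h, 24 h and 6 mo. The counts behind these central shares were 30 and 88 transcripts at 0 h, 13 and 3 at 24 h, 46 at 6 mo and 236 to 2061 in the other sections.

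**Figure D4:**
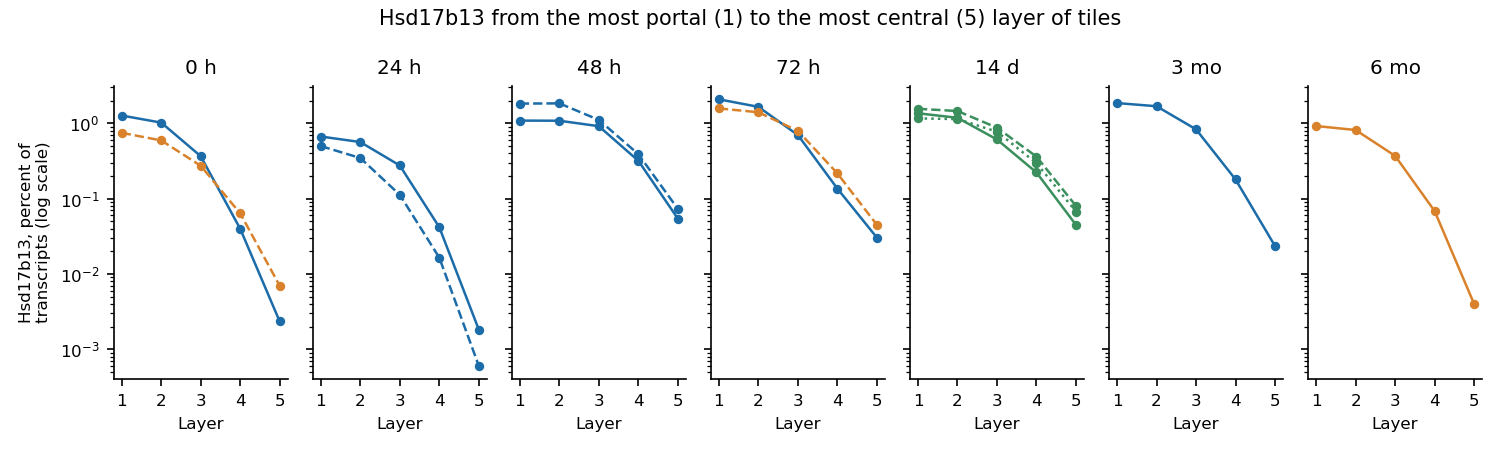
Hsd17b13 as a percent of transcripts (log scale) in the 5 layers of tiles of each section, from the most portal (1) to the most central (5), by time. Solid, dashed and dotted lines are sections 1, 2 and 3, coloured by slide (blue 1, orange 2, green 3), and 14 d section 3 is placed by cells; all lines fall towards the central vein, less far from 48 h to 14 d than at 0 h and 24 h.

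The ratio of the most portal over the most central layer was 542 and 107 at 0 h and 365 and 826 at 24 h. The last value rested on 3 central transcripts, and its 95% counting interval ran from 282 to 4003. The ratio was 20.0 and 25.0 at 48 h, 68.6 and 35.2 at 72 h, and 30.3 and 19.5 in the 14 d sections. The 3 mo section had a ratio of 79.1 and the 6 mo section 230.1. Every 48 h, 72 h, 14 d and 3 mo section lay below every 0 h and 24 h section. The ratio of a section moved with how tiles were made and cut. Over 6 alternatives it ran from 119 to 670 in 0 h section 1 and from 44.4 to 742 in 0 h section 2, and the order of these sections turned (233 and 742) when the layers were cut at common score values set on the 0 h tiles. The sections of 48 h to 3 mo stayed below those of 0 h and 24 h in 5 of the 6. With tiles of 200 units the 3 mo section had 153 and 0 h section 2 had 147. At 0 h and 6 mo, and in both 24 h sections, Hsd17b13 had the highest such ratio of the 62 genes, and it ranked from 2 to 4 elsewhere. Within slide 1 the ratio was 20.0 and 25.0 at 48 h, 68.6 at 72 h and 79.1 at 3 mo, against 542 at 0 h, and within slide 2 it was 35.2 at 72 h and 230.1 at 6 mo, against 107 at 0 h. With the common score values the slide 2 ratios were 48.2 at 72 h and 331 at 6 mo, against 742 at 0 h, so the direction of the 6 mo difference turned. All 14 d sections were on slide 3, so slide and time cannot be told apart there.

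The main test compared the Fisher-transformed correlation with 0 h in limma over the 62 genes and called no change of Hsd17b13. The difference was 0.32 ± 0.13 at 48 h (adjusted p = 0.0584, limma), where 38.7% of genes passed, and between 0.00 and 0.30 at the other times. There 17.7% (24 h), 6.45% (72 h), 19.4% (14 d), 4.84% (3 mo) and 0% (6 mo) of genes passed, and 14 genes had an unadjusted p under 0.05 at 6 mo. It passed at 48 h with tiles of 800 units (adjusted p = 0.0188), with slide as a block (0.0197), with the 24 h sections kept apart (0.0425) and without 0 h section 2 (0.0126). Without 0 h section 2 the 6 mo difference passed as well (0.40, adjusted p = 0.0466, limma). A rank correlation gives little weight to how low the central end lies. So the log2 ratio of the most portal over the most central layer was tested too, in limma over the same genes, as an analysis chosen after the profiles had been seen.

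By the ratio, the gradient of Hsd17b13 was flatter at 48 h than at 0 h by 3.41 ± 0.76 log2 units, a mean log2 ratio of 4.48 at 48 h against 7.90 at 0 h (adjusted p = 0.0178, limma). At 14 d the mean was 4.60, again against 7.90 at 0 h (difference -3.29 ± 0.76, adjusted p = 0.0224, limma). The share of genes called lower (adjusted p under 0.05, limma) was 41.9% at 48 h and 21% at 14 d. A lower ratio means a flatter gradient for a portal gene and a steeper gradient for a central gene. Central Cyp2e1, for example, had a mean log2 ratio of -10.6 at 48 h and -9.61 at 0 h (adjusted p = 0.108, limma). These shares, and the median and ranks over all genes, therefore do not measure flattening. The median change over the 62 genes was -0.72 at 48 h and -0.41 at 14 d, and Hsd17b13 had the lowest value of all genes at 48 h and the third lowest, rank 3, at 14 d. The differences at 24 h (1.07, adjusted p = 0.455), 72 h (-2.28, 0.108), 3 mo (-1.59, 0.523) and 6 mo (-0.07, 0.947) did not pass in limma. Those comparisons called 8.06%, 4.84%, 0% and 1.61% of genes, and at 3 mo 10 genes had an unadjusted p under 0.05. The 72 h difference passed with slide as a block (adjusted p = 0.0358) and without 0 h section 2 (-3.44, 0.0282). Leaving out either 48 h section ended the 48 h call (adjusted p = 0.0559 and 0.0708), and leaving out either 14 d section ended the 14 d call (0.0694 and 0.124). Without 0 h section 1 the 48 h difference was -2.25 (adjusted p = 0.0377) and without 0 h section 2 it was -4.58 (0.00845). The 14 d difference was -2.13 (adjusted p = 0.0470) without 0 h section 1 and -4.46 (0.00604) without 0 h section 2, in limma.

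Genes that place the tiles moved too, and their part in these differences was not tested. Cyp2e1, a cytochrome P450 of central hepatocytes, was less central at 14 d than at 0 h by 3.43 ± 0.45 log2 units of the same ratio (adjusted p = 0.00332, limma). With Cyp2e1 left out of totals and score, the change of Hsd17b13 was -2.61 ± 0.77 at 48 h (adjusted p = 0.0877) and -2.84 ± 0.77 at 14 d (0.0483). Placed by the positions in their cell names, which adds 14 d section 3, the changes were -3.47 at 48 h (adjusted p = 0.00614) and -3.58 at 14 d (0.00265). The ratio of 14 d section 3 was 17.3.

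**Figure D5:**
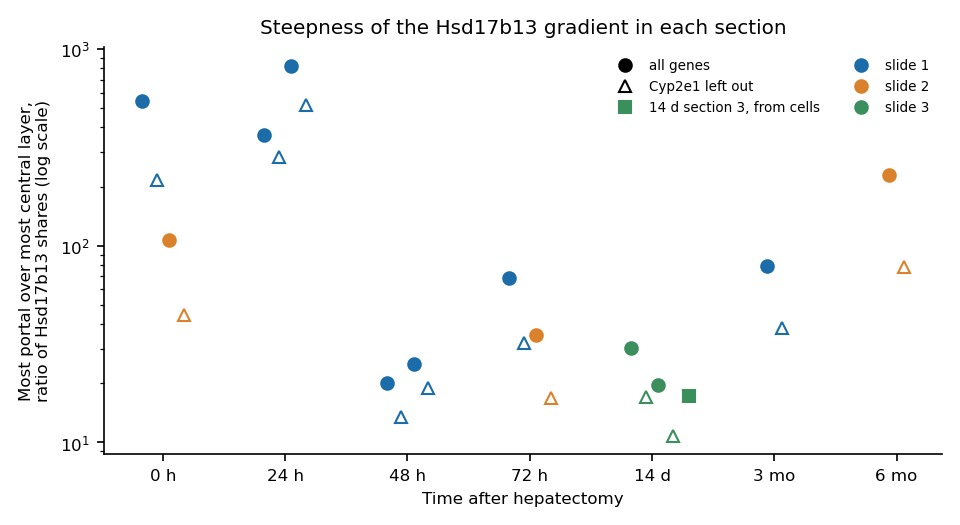
Ratio of the Hsd17b13 share in the most portal layer of tiles over that in the most central layer (log scale) by section and time, with all genes (filled circles) and with Cyp2e1 left out (open triangles), coloured by slide; the square is 14 d section 3 placed by cells. Ratios with all genes are 19.5 to 79.1 from 48 h to 3 mo and 107 to 826 at 0 h, 24 h and 6 mo.

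Cells next to the central vein were also picked without tiles, as cells in which Glul made up at least 5% of counts. In these 235 to 814 cells per section Hsd17b13 stayed far below the section's average at all times. It made up 0.000907% and 0% of their counts at 0 h, 0.00363% and 0.00316% at 24 h, 0.00828% and 0.0198% at 48 h, and 0.0243% and 0.0315% at 72 h. The 14 d sections had 0.0194%, 0.0277% and 0.00283%, the 3 mo section 0.00304% and the 6 mo section 0%. The zero at 6 mo stood for 0 of 135003 counts, which allows up to 0.00222% (3 counts), and the zero at 0 h for 0 of 266230, which allows up to 0.00113%. All 48 h and 72 h sections and 2 of 3 sections at 14 d lay above the 0 h and 24 h sections. The remaining 14 d section and the 3 mo section, with 3 and 4 Hsd17b13 counts in these cells, could not be told from the 24 h sections, with 4 and 5. With a minimum of 2% Glul they had 0.0690% and 0.0232%, against 0.0199% and 0.00985% at 24 h. With a minimum of 10% Glul, 48 h section 1 (0 of 33577 counts) and 72 h section 2 (0 of 34188) had no Hsd17b13. Neither had any 0 h or 24 h section. At that minimum 48 h section 2 had 0.0104%, 72 h section 1 0.0165%, and the 14 d sections 0.0209%, 0.0252% and 0.0140%. The whole-section share was 25.4 to 39.7 times that of the Glul-rich cells in both 72 h sections and 14 d sections 1 and 2. It was 94.1 and 54.8 times at 48 h, which overlapped the 93.4 and 64.9 times at 24 h. The other values were 252 times in 14 d section 3, 304 at 3 mo and 558 in 0 h section 1, and no value could be formed where the count was 0.

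Cells with markers of other cell types also carried Hsd17b13, which limits what can be said of single cells, and the cause was not tested. Cells with at least 3 counts of Adgre1, a macrophage marker, carried Hsd17b13 at 0.633 to 1.33 times the share of all cells in their section, with a median of 0.891. For the endothelial marker Pecam1 the range was 0.756 to 1.17 and the median 0.824, and for the stellate cell marker Lrat 0.632 to 1.03 and 0.850. Hsd17b13 was therefore not assigned to a cell type here. No adipocyte marker of the list used was in the panel.

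In space, the genes most like Hsd17b13 were portal hepatocyte genes. The highest mean Spearman correlations of tile shares over 12 sections were those of Fbp1, a gluconeogenic phosphatase (0.87), Pck1, which makes phosphoenolpyruvate for gluconeogenesis (0.86), Gls2, the liver glutaminase (0.85), Igf1 (0.85) and Vtn, the plasma protein vitronectin (0.84). The most opposite was Cyp2e1 (-0.89). Fbp1, Pck1, Gls2, Igf1 and Vtn all had a lower portal over central ratio at 48 h and at 14 d than at 0 h, but not all of these differences passed. Hsd17b13 was itself among the genes that placed the tiles for them. The log2 ratio of the outermost layers differed from 0 h by -1.68 ± 0.26 for Vtn at 48 h (adjusted p = 0.0102, limma), and by -0.66 ± 0.33 for Fbp1 (0.135), -0.34 ± 0.57 for Pck1 (0.638), -0.91 ± 1.04 for Gls2 (0.482) and -0.48 ± 0.21 for Igf1 (0.108). At 14 d it differed by -3.45 ± 1.04 for Gls2 (adjusted p = 0.0449, limma), -1.17 ± 0.33 for Fbp1 (0.0366) and -1.13 ± 0.26 for Vtn (0.0224), and by -0.41 ± 0.57 for Pck1 (0.543) and -0.15 ± 0.21 for Igf1 (0.543).

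Across libraries other genes were most like it. Pearson correlations of log2 CPM over 12 libraries, which share their scaling, were 0.82 for Csad, an enzyme of taurine synthesis, 0.80 for Fads1, the delta-5 fatty acid desaturase, 0.69 for Fzd4, 0.58 for Gstm1 and 0.55 for Sulf2. Without the 24 h library and 72 h section 1, the libraries farthest from the median of Hsd17b13, these were 0.69, 0.44, 0.71, 0.52 and 0.66. No p is given, since the genes were picked as the highest.

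Cidea was rare. Its 795 counts lay in 742 of 131221 cells, 32 cells held 2 or more, and the fullest held 5. Counts per section were 46 and 7 at 0 h, 20 and 13 at 24 h, 21 and 45 at 48 h, and 29 and 45 at 72 h. The 14 d sections held 128, 164 and 178, the 3 mo section 44 and the 6 mo section 55. As a share of all counts, without TMM scaling, this was 12.1 and 1.75 CPM at 0 h, 8.79 and 7.75 CPM at 24 h, 6.51 and 12.9 CPM at 48 h, and 11.8 and 8.90 CPM at 72 h. The 14 d sections had 18.0, 17.0 and 24.2 CPM, the 3 mo section 15.8 CPM and the 6 mo section 19.0 CPM. On this unscaled measure the sections of 14 d, 3 mo and 6 mo all lay above those of the earlier times. On the TMM scale they overlapped, since 14 d section 1 (13.6 CPM) and the 3 mo section (14.3 CPM) lay below 0 h section 1 (15.0 CPM). The 0 h sections differed from each other, with 95% Poisson intervals of 8.83 to 16.1 CPM and 0.703 to 3.60 CPM that did not overlap.

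Per 1000 cells Cidea had 4.12 and 0.593 counts at 0 h, 3.09 and 2.83 at 24 h, 2.17 and 4.69 at 48 h, and 6.05 and 3.97 at 72 h. In the 14 d sections it had 11.2, 10.5 and 11.3, the 3 mo section 5.42 and the 6 mo section 5.13. At 14 d 1.01%, 1.00% and 1.10% of cells had a count, against 0.331% and 0.0593% at 0 h. After thinning to 200 transcripts the shares were 0.287%, 0.325% and 0.552% at 14 d, against 0.190% and 0.0345% at 0 h. Cells of 14 d sections 1 and 2 were the deepest, with 632 and 626 counts in the median cell against 314 and 317 at 0 h. The median cell of 14 d section 3 held 470 counts, below the 491 of 72 h section 1.

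In edgeR no comparison of Cidea passed. Against 0 h the log2 difference was 0.85 ± 0.55 at 14 d (adjusted p = 0.265), 1.26 ± 0.72 at 6 mo (0.195), 0.65 ± 0.73 at 3 mo (0.733), 0.22 ± 0.62 at 72 h (0.873), -0.12 ± 0.62 at 48 h (0.882) and -0.07 ± 0.75 at 24 h (0.95). Over all times it had F = 1.26 (adjusted p = 0.353, edgeR). Scaled by cell number, Cidea was higher at 14 d than at 0 h by 2.22 ± 0.65 (adjusted p = 0.00754, edgeR), 0.65 above the median of all genes under that scaling. One 0 h section decided much of this. Without 0 h section 1, which left a single 0 h section with 7 counts, the difference was 2.52 at 14 d (adjusted p = 0.00434, edgeR), 2.44 at 3 mo (0.0291) and 3.09 at 6 mo (0.00447). Without 0 h section 2 it was 0.09 at 14 d. With slide as a block, Cidea was higher at 6 mo by 2.18 ± 0.75 (adjusted p = 0.0235, edgeR).

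Rarer genes of the panel were summed beside Cidea, and their part in its values was not tested. The 13 genes with fewer counts summed to 38.3 and 23.2 CPM at 0 h, 81.7 and 84.0 at 24 h, 88.7 and 82.9 at 48 h, and 55.8 and 82.8 at 72 h. They summed to 65.0, 75.1 and 85.5 CPM in the 14 d sections, 66.9 CPM in the 3 mo section and 120.7 CPM in the 6 mo section. Every later section lay above both 0 h sections, those of 24 h and 48 h included. The genes most like Cidea over the 12 libraries were Fzd3 (Pearson r = 0.86), Fzd8 (0.81), Wnt8b (0.78), Cyp7a1, which starts the main route from cholesterol to bile acids (0.76), and Wnt16 (0.68). Wnt8b had 42 counts in all and Fzd3 had 731. Without 0 h section 2 and 48 h section 1 the values were 0.78, 0.57, 0.80, 0.28 and 0.54.

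Cidea had no steady place in the lobule. In the layers from the portal to the central side it had 13, 13, 7, 16 and 25 transcripts at 0 h, and 7, 9, 5, 3 and 25 at 24 h. The 25 central transcripts at 0 h were all in section 1, and section 2 had 3, 6, 2, 2 and 0. The order was 27, 31, 24, 15 and 13 at 48 h, 37, 30, 21, 14 and 19 at 72 h, and 103, 114, 79, 69 and 43 at 14 d. At 3 mo it was 13, 9, 11, 23 and 31, and at 6 mo 26, 19, 6, 6 and 23. Relative to all transcripts of the layer, the most portal layer held 19.9 CPM (95% Poisson interval 16.3 to 24.2) and the most central 9.68 CPM (7.01 to 13.0) at 14 d. At 24 h the most portal layer held 5.73 CPM (2.30 to 11.8) and the most central 20.5 CPM (13.3 to 30.2), and at 3 mo 15.8 CPM (8.39 to 26.9) and 24.5 CPM (16.6 to 34.7). The intervals of these layers were apart at 14 d and at 24 h but not at 3 mo. At 24 h they overlapped when cells were placed by the positions in their names, with 8 transcripts (8.91 CPM, 3.85 to 17.6) in the most portal layer and 11 (14.0 CPM, 7.01 to 25.1) in the most central. In 14 d section 1 alone they overlapped as well, with 17.1 CPM (12.1 to 23.4) and 13.9 CPM (9.09 to 20.4). They were apart in 14 d section 2, with 22.1 CPM (17.0 to 28.1) and 6.61 CPM (3.85 to 10.6). In 14 d section 3, placed by cells, they were apart too, with 29.9 CPM (22.2 to 39.3) and 8.61 CPM (4.45 to 15.0). The most portal layer held more CPM than the most central in every 48 h and 72 h section, with overlapping intervals, and less in both 24 h sections and at 3 mo. With 13 to 237 positioned transcripts per section, Cidea was too sparse for the test of position.

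Whether cells with Cidea also held more Hsd17b13 was asked within each section. The log2 ratio of the Hsd17b13 share in cells with Cidea over that in cells without averaged 0.17 ± 0.54 (SD, n = 12 libraries). It was above 0 in 10 of 12 libraries and did not pass an exact two-sided sign-flip permutation test (p = 0.287). The largest negative values were those of the 24 h sections, -1.03 and -1.32, where the Cidea cells held 12 and 3 Hsd17b13 counts. Without 24 h the mean was 0.30 and p = 0.0186 by the exact permutation test. In cells thinned to 200 transcripts the mean was 0.00 (p = 0.996, exact permutation test), and within layers of cells ranked by the same score it was 0.06 (p = 0.294, exact permutation test).

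Other genes of lipid handling were few in the panel. Fads1 and Elovl2 stood for the making of polyunsaturated fatty acids, Cpt2 for mitochondrial fatty acid oxidation, Apof, Apom and Pon1 for lipoproteins, Lrat for retinol storage, and Cyp7a1, Cyp8b1, Cyp27a1 and Csad for bile acid synthesis and conjugation. These 4 bile acid genes were added after their values had been seen. Of these 11 genes, 4 fell and 0 rose at 24 h against 0 h in edgeR, where 7.07% of all genes fell. At 48 h 3 fell (12.1% of all genes), at 72 h 1 (6.06%), at 14 d 1 (13.1%) and at 6 mo 2 (12.1%), none at 3 mo, and none rose at any of these times. Their median log2 difference at 24 h was -0.92, beside -0.09 for all 99 genes. Without the bile acid genes 1 of 7, Pon1, fell at 24 h and the median was -0.49. Of these 7, 1 fell at 48 h, 0 at 72 h, 1 at 14 d and 1 at 6 mo. Between 24 h and 48 h 1 of the 11, Csad, rose with Hsd17b13 (3.17 ± 0.80, adjusted p = 0.0294, edgeR), as did 3.03% of all genes. The list median was 0.39 there, beside 0.02 for all genes.

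Single lipid genes had courses of their own. Elovl2, an elongase of polyunsaturated fatty acids, fell at 14 d against 0 h (-1.66 ± 0.24, adjusted p = 2.35e-05, edgeR), while its 48 h difference was 0.50 ± 0.27 (0.209). Pon1, the paraoxonase of high-density lipoprotein, fell at 24 h (-1.16 ± 0.32, adjusted p = 0.0161, edgeR), at 48 h (-0.91 ± 0.25, 0.0140) and at 6 mo (-1.36 ± 0.32, 0.00465). Fads1 differed by -0.92 ± 0.34 at 24 h (adjusted p = 0.0575, edgeR) and by -0.03 ± 0.26 at 48 h. Apof, Apom, Lrat and Cpt2 passed at no time against 0 h. Mogat1, a monoacylglycerol acyltransferase of triglyceride synthesis that is on none of these lists and was named after its values were seen, averaged 49.9 CPM at 14 d and 24.0 CPM at 0 h (1.06 ± 0.42, adjusted p = 0.0608, edgeR). Against 72 h, 3 of the 11 fell at 14 d, where 27.3% of genes passed and 17.2% fell: Elovl2 (-1.84 ± 0.24, adjusted p = 6.77e-06, edgeR), Lrat (-1.42 ± 0.29, 0.00110) and Cpt2 (-0.81 ± 0.23, 0.0143). In the same comparison Hsd17b13 differed by -0.42 ± 0.25 (adjusted p = 0.237) and Cidea by 0.62 ± 0.54 (0.409).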

How the data were processed

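The authors deposited whole-number transcript counts per gene and cell for 13 sections, and lists of transcript positions for 12. Decoding, cell segmentation and the length of the coordinate unit are not given in the sources used here. Per the labels' protocols, the company that sells the assay performed it. A gene without a line in a table was taken as 0. Symbols were matched to RefSeq (Hsd17b13, gene 243168; Cidea, gene 12683).

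Counts were summed over cells to 12 libraries. Levels were tested with edgeR 4.0.16 under R 4.3.3, using TMM and the robust quasi-likelihood fit to all libraries together (5 residual degrees of freedom). A gene was tested if 2 or more libraries held 10 or more counts, which kept 99. The SE of a log2 difference is its size over the square root of F. Tiles needed at least 50 transcripts. Position was tested with limma 3.58.1 (4 residual degrees of freedom), 24 h sections averaged. Adjusted p-values under 0.05 were called. The tests of level and of position correlation were checked on simulated data for 48 h against 0 h only. The portal over central ratio test and the co-occurrence test were not. DESeq2 1.42.0, other scalings, filters, tile sizes, slide and replicate blocks, and leaving out sections were alternatives. The co-occurrence ratio added 0.5 counts.

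Named genes were both members, all panel genes of 5 lipid lists, the 5 most like each member over libraries, the 5 most like Hsd17b13 over tiles, and reference genes. Bile acid genes, Mogat1 and the other genes called at 48 h against 24 h were named after their values were seen. Members, lists and tests were chosen with earlier results of these data known. Sections of one time shared at most 2 cell names and differed beyond sampling noise (chi-square per degree of freedom at least 198.9).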

Additional observations from a re-analysis of the deposited data

Results flagged for a closer look

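The change of Hsd17b13 against 0 h differed between 48 h and 24 h. It was 0.55 ± 0.28 log2 units at 48 h and -0.92 ± 0.35 at 24 h, and the test of the difference itself gave 1.47 ± 0.36 (adjusted p = 0.0248, edgeR). That test is the 48 h against 24 h comparison already given, since 0 h cancels out, and not a further result. Its call was lost in 4 of 13 fits that left out 1 section. The call was also lost in 2 of 12 other alternatives, with libraries scaled by total counts or by cell number. Over all these fits the difference ran from 1.19 to 1.87. Both 48 h libraries, at 7331 and 8847 CPM, lay above the 24 h library at 2928 CPM. The 24 h sections were summed to 1 library, and separately they held 0.339% and 0.205% of counts, against 0.779% and 1.09% at 48 h.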

How the results depend on the processing

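Of the 644 alternative values of the tests of level, position correlation and co-occurrence, 574 kept the direction and the side of the threshold, 29 turned direction (each of them a value that had not passed), 32 came to pass and 9 no longer passed; the cause was not tested unless given. For the portal over central ratio test, 112 of 123 alternatives kept both, 4 turned direction without passing, 2 came to pass at 72 h and 5 no longer passed at 48 h or 14 d. With slide as a block no value for 14 d or for all times together can be had, because slide 3 held all 14 d sections and no others. Scaled by total counts, the log2 difference of Hsd17b13 was 1.22 at 48 h, 1.11 at 72 h and 1.01 in the 14 d sections against 0 h (all passed), 0.13 for 6 mo against 0 h, 1.73 for 48 h against 24 h (no longer passed) and -0.10 for 72 h against 48 h. Scaled by cell number it was 1.26, 1.62 and 1.76 in the first 3 of these (all passed), 1.70 for 48 h against 24 h (no longer passed) and 0.14 for 14 d against 72 h. Cidea under total counts was at 0.28 for 24 h and 0.50 for 48 h against 0 h, and 0.22 for 48 h against 24 h. By cell number these were 0.35, 0.55 and 0.20, and 2.22 for 14 d against 0 h (passed). The 24 h difference of Hsd17b13 passed at -0.95 with DESeq2, -0.90 with TMM without Cyp2e1, -1.02 with all transcripts of the position lists, -0.95 with the 24 h sections separate and -1.08 with slide as a block. Its 72 h difference passed at 0.73 with all transcripts of the lists and 0.71 with slide as a block. For 6 mo against 0 h it was 0.073 with no filter, 0.029 with the 14 d sections summed and 0.056 with slide as a block. Cidea was at 0.15 for 24 h with no filter, -0.26 for 72 h within slide 1, 0.084 for 48 h against 24 h with all transcripts of the lists and 2.18 at 6 mo with slide as a block (passed). The F of Hsd17b13 over all times was 2.51 with the 14 d sections summed and no longer passed.

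Position of Hsd17b13 at 48 h passed at 0.48 with tiles of 800 units, 0.32 with the 24 h sections separate and 0.39 with slide as a block. With tiles of 200 units it was -0.067 at 72 h and -0.055 at 3 mo, and without Cyp2e1 -0.0068 at 3 mo. The portal over central log2 ratio at 6 mo was 0.51 with tiles of 800 units and 0.75 with slide as a block. The ratio of Hsd17b13 in cells with Cidea was -0.00134 after thinning. Thinning moved the share of cells with a member by more than the spread in 10 of 13 sections for either gene.

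Correlations of same-numbered sections between times ran from -0.51 to 0.21. They used only sections 1 and 2 of each time, so they cannot show whether the numbers pair sections. The main fits took sections as unpaired. In the fit with the replicate number as a replicate block over the 4 times that have one, the F of Hsd17b13 was 1.90 (adjusted p = 0.240, edgeR), and the same 4 times without the block gave 3.01 (0.106), so neither passed.

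Leaving out 1 section at a time moved the log2 difference of Hsd17b13 from 0 h over -1.51 to -0.54 at 24 h, 0.45 to 0.85 at 72 h, 0.50 to 0.91 at 3 mo and -0.30 to 0.22 at 6 mo, and that of 48 h from 24 h over 1.19 to 1.87. For Cidea the ranges against 0 h were -0.70 to 1.78 at 24 h, -0.91 to 1.43 at 48 h, -0.52 to 1.79 at 72 h, 0.093 to 2.52 for 14 d, 0.022 to 2.44 for 3 mo and 0.55 to 3.09 for 6 mo. The upper end of each came without 0 h section 1 and the lower end without 0 h section 2. For 48 h against 24 h the Cidea range was -0.40 to 0.060, and F over all times ran from 0.97 to 4.74 (highest without 0 h section 1, adjusted p = 0.00733 in edgeR). Position of Hsd17b13 ranged over 0.22 to 0.42 at 48 h, -0.032 to 0.17 at 72 h, -0.099 to 0.11 for 3 mo and 0.20 to 0.40 for 6 mo, and its portal over central log2 ratio over -0.096 to 2.23 at 24 h and -1.23 to 1.09 at 6 mo, with the ends set by the 0 h sections. The ratio in cells with Cidea ranged from 0.11 to 0.30. Cidea, with 7 to 178 counts per section, limits every statement made on it.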
